A study of Mus musculus with 11 samples.

Results

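The aryl hydrocarbon receptor gene Ahr and 3 genes that act with it, its partner Arnt, its repressor Ahrr and its target Tiparp, were followed across 11 RNA sequencing libraries of myeloid cells sorted from mouse brain. The 4 genes were found by symbol among the 24411 genes of each count table. The set was chosen by a measured value, the very low level of Ahr in the control library, so the levels of all 4 genes in that library are given as a description, without a test. The series concerned the delivery of blood-forming stem and progenitor cells to the brain for gene therapy in a mouse model of Alzheimer's disease, in competitive transplants. The routes of delivery were intravenous (IV), intracerebroventricular (ICV) and lumbar intrathecal (ITL). For each route 3 populations were sequenced, which the labels name CD45.2 µ, CD45.1 µ and CD45.1 TAµ after the CD45 allele and a cell label, so that 9 libraries form a complete layout. To these came an ICV library labelled CD45.2 PBS and a control library labelled CTR µ, for which no CD45 allele is named. The labels call all 11 libraries microglia-like cells. TAµ and PBS are not spelled out, and neither allele is said to be that of the host. The sources used here name no age or strain of the mice, no time after transplantation, and no disease transgene or pooling of animals for any library. Each combination of route and population is 1 library, so no group has a true replicate.

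AHR is a ligand-activated transcription factor of the bHLH-PAS family that waits in the cytoplasm bound to HSP90 and other chaperones. Dietary indoles, tryptophan metabolites and dioxin-like pollutants bind it, after which it enters the nucleus, pairs with ARNT and binds DNA at a short element with the core GCGTG. AHRR competes for ARNT and represses the response, and TIPARP, an enzyme that attaches single ADP-ribose units to proteins, acts on AHR itself, so that both genes are targets and brakes of the receptor. In the brain, AHR in microglia is known for limiting inflammatory signalling towards astrocytes.

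The promoters of the feedback genes Ahrr and Tiparp are shown because they hold the core to which the receptor pair is known to bind. Each runs 5′ to 3′ on the strand of its gene over the 250 bases before the RefSeq start site in build GRCm38.p6, and capitals mark the core GCGTG or its reverse complement CACGC. The Ahrr window is chr13:74292332-74292581 on the minus strand, and the Tiparp window is chr3:65528197-65528446 on the plus strand.
Ahrr: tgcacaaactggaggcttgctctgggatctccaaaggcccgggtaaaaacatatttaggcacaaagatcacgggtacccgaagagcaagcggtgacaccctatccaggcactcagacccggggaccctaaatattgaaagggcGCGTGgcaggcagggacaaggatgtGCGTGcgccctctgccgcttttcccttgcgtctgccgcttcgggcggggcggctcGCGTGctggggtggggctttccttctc
Tiparp: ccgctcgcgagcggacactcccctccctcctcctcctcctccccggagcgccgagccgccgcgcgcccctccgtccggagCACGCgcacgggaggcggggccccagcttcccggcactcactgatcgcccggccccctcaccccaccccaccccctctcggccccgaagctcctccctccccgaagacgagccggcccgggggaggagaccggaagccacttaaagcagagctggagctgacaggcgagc

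The Ahrr window held 3 cores, which begin 107, 82 and 27 bases before the start. The last of them lies within the longer form TNGCGTG. The Tiparp window held 1 core, on the opposite strand, which begins 170 bases before the start, and the Arnt window held 1. Both strands were searched. Of 32851 RefSeq windows of the same length, 28.2% held at least 1 core, 2.77% held 3 or more, and 4.10% held TNGCGTG. The sequences were available for 3 of the 4 genes and a match is a description of letters, not a sign of binding in these cells. The cells' reads were aligned by the authors to another build, GRCm39, and no position of a read is used here.

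The libraries held between 6090589 counts (ITL CD45.2 µ) and 21282823 counts (ICV CD45.2 µ), and levels are given as CPM, a gene's count divided by its library's total on the usual scale. The pre-ribosomal transcript Rn45s took 6.98% to 25.1% of the counts, so library totals without it were used as an alternative scale. Where no read was found, the limit set by 3 counts was 0.141 to 0.493 CPM, depending on the library. The myeloid label was met in every library: the 6 lineage genes Ptprc, Spi1, Aif1, Itgam, Cd68 and Csf1r were all detected and summed to 6442 to 8612 CPM in the 9 libraries and to 10398 CPM in CTR µ. The 10 homeostatic microglia markers were also detected in all 11. The fewest genes with a count were in IV CD45.2 µ (10477), followed by ICV CD45.1 µ (11456). Sex-linked transcripts differed between the populations and between the routes. Xist, the non-coding RNA that silences an X chromosome, had 12.3 to 429 CPM in the CD45.1 TAµ libraries, 295 to 6291 CPM in the CD45.1 µ libraries, 4028 to 6399 CPM in the CD45.2 µ libraries and no read in CTR µ.

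Ahr was 4.13 CPM in CTR µ, from 54 reads, and at least 34.0 CPM in every other library. In the CD45.1 µ libraries it had 124 CPM (IV), 140 CPM (ICV) and 76.2 CPM (ITL). In CD45.1 TAµ it had 187, 105 and 92.7 CPM in the same order of routes, and in CD45.2 µ 77.5, 124 and 34.0 CPM. The ICV CD45.2 PBS library had 114 CPM. The highest level was thus in IV CD45.1 TAµ and the lowest after CTR µ in ITL CD45.2 µ, and the 3 populations overlapped. In descending order, the libraries ICV CD45.2 µ, then IV CD45.1 µ, then PBS and ICV CD45.1 TAµ formed a run in which each 95% counting interval overlapped the next, as did those of IV CD45.2 µ and ITL CD45.1 µ. The other neighbours were apart by more than counting error, which is an exact Poisson interval and says nothing about the spread between animals. The mean of the 9 libraries was 107 ± 43.9 CPM (SD, n = 9), 25.8-fold the level in CTR µ, and the lowest of the 9 was still 8.22-fold higher (95% interval of CTR µ 3.10 to 5.39 CPM).

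Of 14766 genes tested over all 11 libraries, 1.21% lay more than 1 log2 unit below all 9 libraries in CTR µ. Ahr had a gap of 3.03 log2 units to the nearest library, the 10th largest gap of all. Since that value chose the gene, nothing further is read from it. In bulk RNA, fewer cells that express a gene and less RNA per cell cannot be told apart, and this holds for every level given here.

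**Figure D1:**
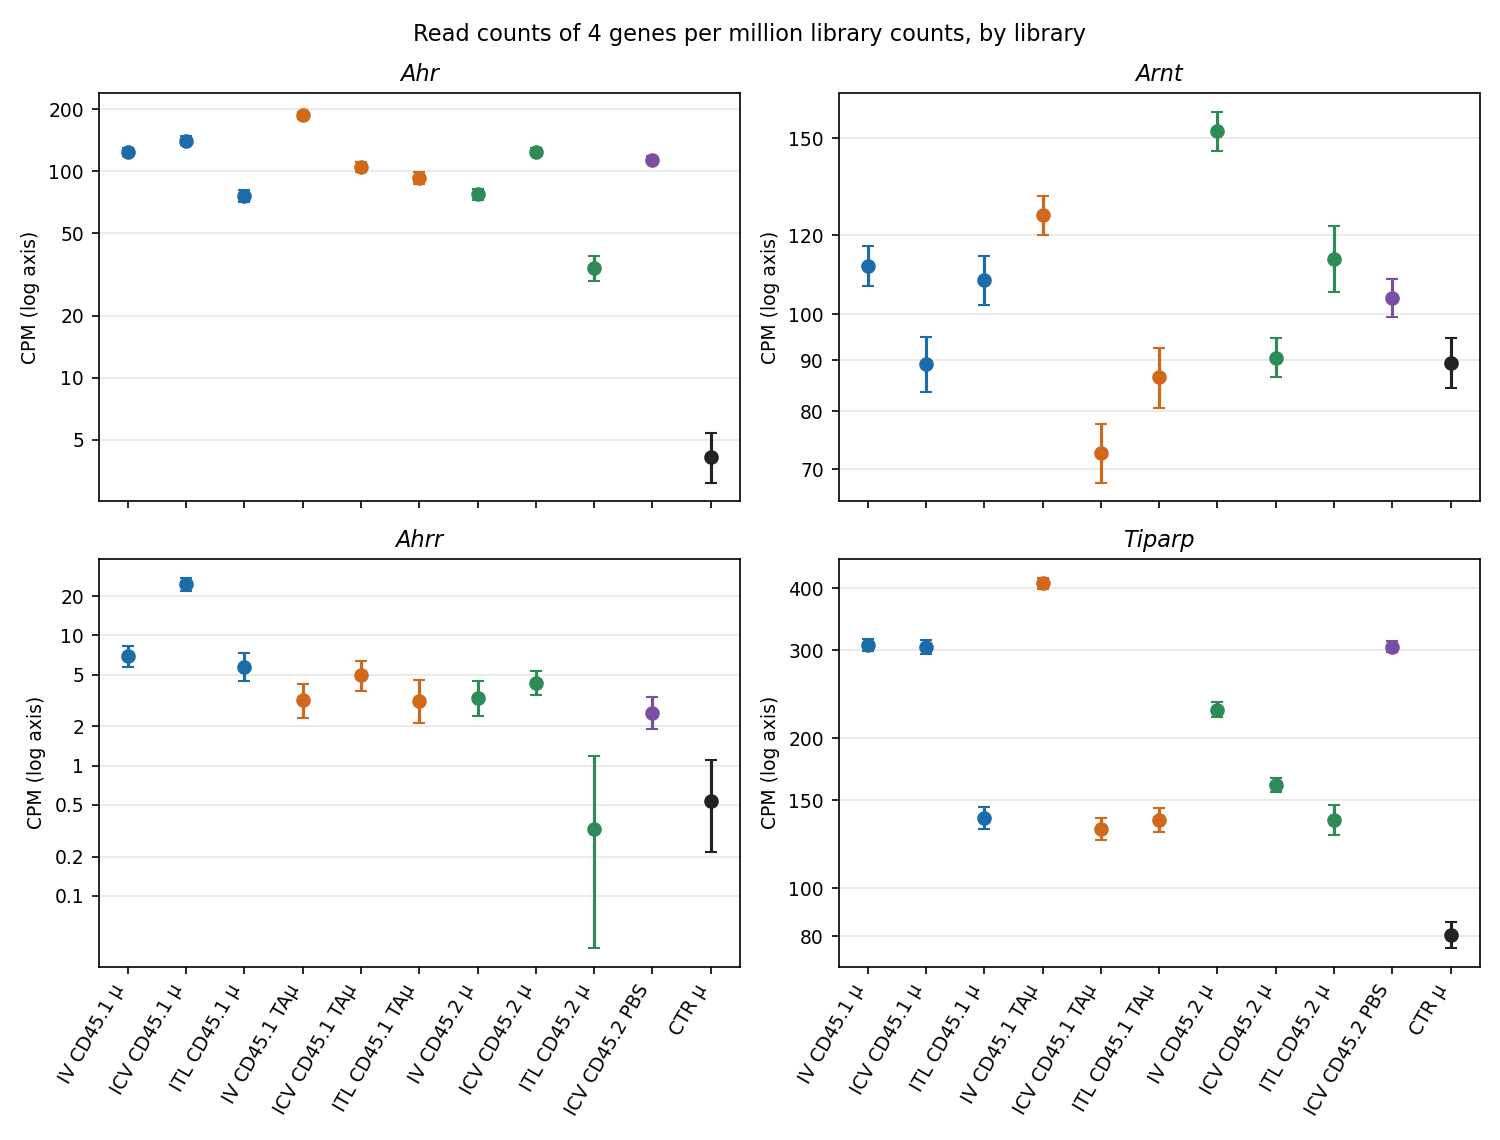
Level of Ahr, Arnt, Ahrr and Tiparp in each of the 11 libraries, as CPM (count over library total) on log axes that differ between panels; bars are exact 95% Poisson intervals (counting error only). Ahr and Tiparp are lowest in CTR µ, at 4.13 and 80.6 CPM, while Arnt in CTR µ lies within the range of the other libraries.

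Arnt, which encodes the obligate partner of AHR and of the hypoxia factors, varied less across the libraries than Ahr did. It had 112, 89.1 and 108 CPM in CD45.1 µ by IV, ICV and ITL, and 126, 72.7 and 86.5 CPM in CD45.1 TAµ. In CD45.2 µ it had 152, 90.5 and 114 CPM, with 104 CPM in the PBS library. CTR µ, at 89.5 CPM (84.4 to 94.7), lay inside the range of the 9 libraries, 6 of which were above it. The mean of the 9 was 106 ± 24.1 CPM (SD, n = 9), 1.18-fold that of CTR µ. The coefficient of variation over the 9 libraries was 22.8% for Arnt and 41.1% for Ahr, and the highest library exceeded the lowest 2.10-fold for Arnt and 5.49-fold for Ahr. Arnt was therefore near its usual level in the library that held almost no Ahr. In CTR µ there were 21.6 Arnt reads per Ahr read, against 0.635 to 3.34 in the 9 libraries.

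Ahrr, the receptor's repressor, was at a low level throughout and stood out in a single library. It had 6.92, 24.6 and 5.75 CPM in CD45.1 µ by IV, ICV and ITL, where the ICV library held 274 reads. In CD45.1 TAµ it had 3.18, 4.93 and 3.15 CPM. In CD45.2 µ it had 3.32 and 4.32 CPM by IV and ICV and 2 reads (0.328 CPM, 95% interval 0.0398 to 1.19) by ITL. The PBS library had 2.55 CPM and CTR µ 7 reads, or 0.536 CPM (0.215 to 1.10). On library totals all 3 CD45.1 µ libraries were above all other libraries, but on TMM-scaled totals and on totals without Rn45s they overlapped CD45.1 TAµ. The 2 lowest levels, with overlapping counting intervals, were in ITL CD45.2 µ and CTR µ. Those were also the 2 libraries with the least Ahr. Of the 9 libraries, 8 were above CTR µ in Ahrr, and their mean was 6.28 ± 7.12 CPM (SD, n = 9), a coefficient of variation of 113%.

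Tiparp, the ADP-ribosyltransferase that marks AHR for removal, was highest by IV in each of the 3 populations. By IV it had 228 CPM in CD45.2 µ, 307 CPM in CD45.1 µ and 410 CPM in CD45.1 TAµ. In the same order of populations it had 161, 305 and 132 CPM by ICV and 137, 138 and 137 CPM by ITL. On library totals the 3 ITL libraries differed by less than their counting intervals, with a mean of 137 ± 0.599 CPM (SD, n = 3). The IV and ICV libraries spread over 315 ± 90.9 and 199 ± 92.6 CPM. Rn45s took 15.7%, 12.1% and 23.5% of the counts of the ITL libraries, in the same order of populations. On TMM-scaled totals these were at -0.60, -0.58 and -0.43 log2 units from the mean of the 9, so the evenness is given for library totals only. The PBS library had 305 CPM. CTR µ, at 80.6 CPM (75.8 to 85.6), was below all 9 libraries, the lowest of which was 1.63-fold and the highest 5.08-fold above it.

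Of the 3 genes beside Ahr, Tiparp lay below all 9 libraries in CTR µ, as did 7.38% of the 14766 genes, and Arnt and Ahrr did not. For Tiparp this was so on library totals, on totals scaled by TMM and on totals without Rn45s. The gap of Tiparp was 0.71 log2 units and did not pass the threshold of 1. Tiparp was lower in CTR µ by less than Ahr was: there were 19.5 Tiparp reads per Ahr read in CTR µ, against 1.25 to 4.04 in the 9 libraries and 2.68 in the PBS library. Within the 9 libraries this ratio was highest in ITL CD45.2 µ, where Ahr was lowest.

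Marker sums were set beside the levels of Ahr. The 6 markers of graft-derived brain macrophages, Ms4a7, Apoe, Axl, Clec12a, Cd38 and Lyz2, summed to 858 CPM in CTR µ, 5786 CPM in ITL CD45.2 µ and 7579 CPM in IV CD45.2 µ, and to 20039 to 31975 CPM in the other 7 of the 9 libraries. None of the 6 was at 0 in any library. Ahr was lowest in CTR µ and next lowest in ITL CD45.2 µ, and IV CD45.2 µ ranked among the 4 lowest. ITL CD45.1 µ had slightly less Ahr than IV CD45.2 µ (76.2 against 77.5 CPM) but a sum of 27235.5 CPM. Apoe made up most of the sum in every library, with 530 CPM in CTR µ and 4194 CPM in ITL CD45.2 µ. Among those 7 libraries the sum, and so mainly Apoe, did not rise with Ahr. IV CD45.1 TAµ, with the most Ahr (187 CPM), had 20039 CPM, and ITL CD45.1 TAµ, with 92.7 CPM of Ahr, had 31975 CPM. The 10 homeostatic microglia markers had their lowest sums in the PBS library (10875 CPM) and in IV CD45.1 TAµ (12163 CPM), with its high Ahr level. Their highest sums were 32609 CPM in CTR µ and 21976 CPM in ITL CD45.2 µ, where Ahr was lowest. ITL CD45.1 µ, with 76.2 CPM of Ahr, had almost the same sum as ITL CD45.2 µ, 21936.5 CPM. In CTR µ, Fcrls (1711 CPM) and Trem2 (413 CPM) lay inside the range of the 9 libraries, and the other markers of this list lay above it.

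Markers of other cells also varied between the libraries. The 5 neutrophil markers summed to 0.927 to 8954 CPM in the 9 libraries and to 1156 CPM in CTR µ, and the 6 monocyte markers to 99.9 to 1091 CPM and 130 CPM. Both sums were lowest in IV CD45.2 µ, where 3 of the 5 and 4 of the 6 genes were at 0. The 6 markers of border-associated macrophages summed to 477 to 2491 CPM in the 9 libraries. Their sum was lowest in CTR µ, at 211 CPM, and next lowest in ITL CD45.2 µ, as Ahr was. Most of it was Mrc1, with 146 CPM in CTR µ and 380 CPM in ITL CD45.2 µ. Mrc1 and Siglec1 followed that order, while Cd163, Lyve1, Pf4 and Cbr2 in CTR µ lay inside the range of the 9. Dendritic cell markers summed to 0 to 36.4 CPM, T and NK cell markers to 0 to 12.1 CPM and B cell markers to 0 to 10.1 CPM, with 8.04, 2.60 and 11.48 CPM in CTR µ. Among brain cells, oligodendrocyte markers summed to 96.7 to 1144 CPM, astrocyte markers to 54.4 to 570 CPM, endothelial and mural markers to 20.5 to 339 CPM and neuronal markers to 4.34 to 27.8 CPM. CTR µ had 109, 193, 74.4 and 5.43 CPM for these 4 lists. CTR µ also differed in sex-linked transcripts, with 0 Xist counts and 311 CPM of Y-linked transcripts. The part of any of these in the level of Ahr was not tested.

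**Figure D2:**
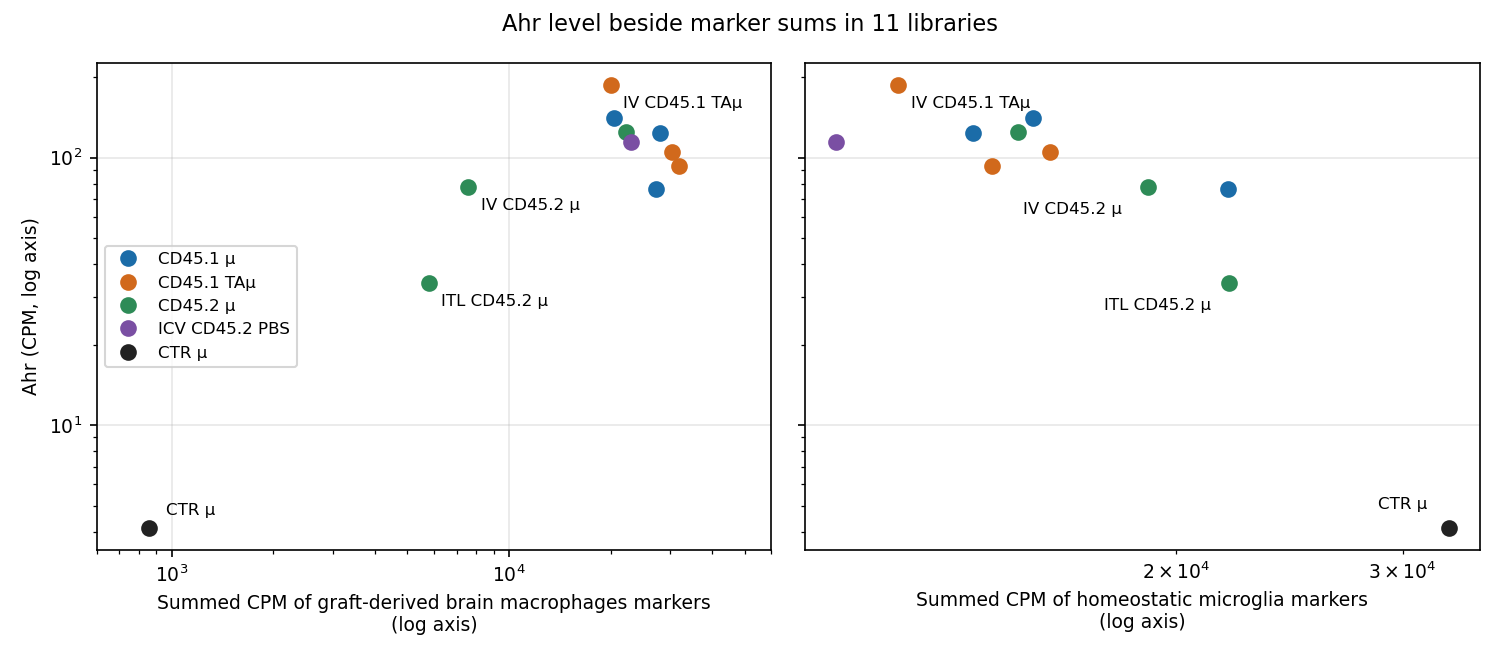
Ahr level (CPM, log axis) against the summed CPM of graft-derived brain macrophage markers (left) and of homeostatic microglia markers (right, both log axes) in the 11 libraries, 1 point a library. CTR µ holds the least Ahr, the lowest macrophage sum (858 CPM) and the highest microglia sum (32609 CPM), and ITL CD45.2 µ is the next lowest in Ahr. Most of each macrophage sum is Apoe.

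The 3 populations were compared with the route as a block in 1 additive model of the 9 libraries, fitted over 13339 genes by edgeR's quasi-likelihood F test, with p-values adjusted after Benjamini and Hochberg at 0.05. The p-values rest on how single libraries depart from the sum of route and population, with that spread moderated across all genes. In that departure a spread between animals cannot be told apart from other differences between libraries. The contrasts also share libraries. Of all genes, 0.075% were called for CD45.1 TAµ over CD45.1 µ, 0.03% for the 2 µ populations and 0.345% for CD45.1 TAµ over CD45.2 µ. None of the 4 genes passed in any of these contrasts or in the 3 route contrasts. Over these 24 tests, 6 had an unadjusted p under 0.05, where 6.54% of the 80034 tests of all genes did, and DESeq2 called 1, where it made 1016 calls over all genes. The 24 tests share libraries and are not independent.

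Ahr had means of 128 ± 51.0 CPM in CD45.1 TAµ, 114 ± 33.4 CPM in CD45.1 µ and 78.6 ± 45.18 CPM in CD45.2 µ (SD, n = 3 each). Each CD45.2 µ library had less Ahr than its CD45.1 µ counterpart, with 1.60-fold, 1.13-fold and 2.24-fold differences by IV, ICV and ITL, where 13.4% of genes were lower by all 3 routes. The fitted log2 difference was -0.49 ± 0.32 (SE, adjusted p = 0.657), and with 1 library left out it ran from -1.05 (without ICV CD45.2 µ) to -0.26 (without ITL CD45.2 µ), with -0.27 without IV CD45.2 µ. The largest of the 3 fitted population differences of Ahr was that of CD45.1 TAµ over CD45.2 µ, 0.80 ± 0.33 log2 units (95% interval 0.11 to 1.49, adjusted p = 0.610), but by ICV the order was reversed, with 105 CPM in CD45.1 TAµ and 124 CPM in CD45.2 µ. That difference was 1.34 without ICV CD45.2 µ and 0.56 without ITL CD45.2 µ. CD45.1 TAµ and CD45.1 µ differed by 0.31 ± 0.32 log2 units (adjusted p = 0.907), with a range of 0.12 (without IV CD45.1 TAµ) to 0.65 (without ICV CD45.1 TAµ) when 1 library was left out. The populations differed in Xist and in Y-linked transcripts as well, so that a difference between populations and one between the sexes of the cells cannot be told apart.

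The repressor Ahrr showed the largest fitted differences between populations. Its means were 2.66 ± 2.08 CPM in CD45.2 µ, 3.75 ± 1.02 CPM in CD45.1 TAµ and 12.4 ± 10.6 CPM in CD45.1 µ (SD, n = 3 each). All 3 CD45.2 µ libraries were below all 3 CD45.1 µ libraries on each of the 3 scales. The share of genes was counted on library totals only, where 5.64% did the same. The fitted log2 difference was -1.96 ± 0.82 (95% interval -3.68 to -0.24, adjusted p = 0.529), and it was -1.49 without ICV CD45.1 µ, the library with 24.6 CPM. CD45.1 TAµ was also below CD45.1 µ by every route, as were 13.5% of genes, 2.18-fold by IV, 4.99-fold by ICV and 1.82-fold by ITL. The fitted difference was -1.49 ± 0.81 (adjusted p = 0.874). The groups did not overlap on library totals, as for 6.33% of genes lower in CD45.1 TAµ, but overlapped on TMM-scaled totals and on totals without Rn45s. Ahrr therefore gave intervals several log2 units wide, and for CD45.1 TAµ against CD45.2 µ the interval ran from -1.66 to 2.60.

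Arnt and Tiparp had smaller fitted differences between populations than Ahrr in the contrasts with CD45.1 µ. By all 3 routes Arnt was higher in CD45.2 µ, both over CD45.1 µ, as were 11.3% of genes, and over CD45.1 TAµ, where 14.7% of genes were lower in CD45.1 TAµ by every route. Against CD45.1 µ it had a fitted difference of 0.23 ± 0.26 log2 units (adjusted p = 0.796), and it differed by -0.02 ± 0.26 between CD45.1 TAµ and CD45.1 µ (95% interval -0.57 to 0.53). Tiparp had means of 176 ± 47.2 CPM in CD45.2 µ, 250 ± 96.9 CPM in CD45.1 µ and 226 ± 159 CPM in CD45.1 TAµ (SD, n = 3 each). Its fitted difference from CD45.1 µ was -0.43 ± 0.27 in CD45.2 µ (adjusted p = 0.643, and -0.15 without ICV CD45.1 µ) and -0.12 ± 0.27 in CD45.1 TAµ (adjusted p = 0.962). By ICV, CD45.1 TAµ held 2.32-fold less Tiparp than CD45.1 µ, and by IV 1.33-fold more.

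Routes were compared with the population as a block. In each population Xist was lowest by IV and highest by ICV, and Y-linked transcripts ran the other way. By IV, ICV and ITL, Xist had 295, 6291 and 1369 CPM in CD45.1 µ and 12.3, 429 and 51.2 CPM in CD45.1 TAµ. In CD45.2 µ it had 4028, 6399 and 5391 CPM. A difference between routes and one between the sexes of the cells therefore cannot be told apart. Between ITL and IV the test called 0.217% of genes, 28 of 29 of them lower by ITL. Tiparp was lower by ITL in each population, 2.22-fold in CD45.1 µ, 2.99-fold in CD45.1 TAµ and 1.66-fold in CD45.2 µ. All 3 ITL libraries were below all 3 IV libraries on each of the 3 scales, and on library totals alone so were 6.84% of genes. The fitted log2 difference was -1.13 ± 0.27 (95% interval -1.71 to -0.55), a 2.19-fold lower level, with an adjusted p of 0.165 by edgeR and 0.0123 by DESeq2. Over the alternatives the adjusted p ran from 0.0123 to 1.00. The difference was -0.79 without IV CD45.1 TAµ, the library with 410 CPM, and stayed between -1.26 and -0.79 with any of the 9 libraries left out.

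Ahr was lower by ITL than by either other route in all 3 populations. Its means were 129 ± 54.7 CPM by IV, 123 ± 17.8 CPM by ICV and 67.6 ± 30.3 CPM by ITL (SD, n = 3 each). Against IV, where 14.8% of genes were lower by ITL in all 3 populations, the fitted difference was -0.86 ± 0.33 log2 units (95% interval -1.55 to -0.17, adjusted p = 0.777). Against ICV, where 8.74% of genes were lower in all 3 populations, it was -1.03 ± 0.33 (95% interval -1.73 to -0.32, adjusted p = 0.998). The ITL and ICV groups did not overlap on any of the 3 scales. On library totals alone this was so for 3.28% of genes lower by ITL. ITL CD45.2 µ, with the lowest macrophage marker sum of the 9, was the lowest point. Without it the 2 differences were -0.62 and -0.75, and without ICV CD45.2 µ the difference from ICV was -0.57. Arnt was higher by ITL than by ICV in all 3 populations, as were 16.7% of genes, by a fitted 0.22 ± 0.26. Between ITL and ICV edgeR called 0 genes (506 at an unadjusted p under 0.05), and DESeq2 called 32.

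Between ICV and IV, Ahr differed by 0.17 ± 0.31 log2 units (95% interval -0.49 to 0.83) and turned to -0.29 without ICV CD45.2 µ. Arnt was lower by ICV in every population, as were 13.6% of genes, with means of 84.1 ± 9.93 CPM against 130 ± 20.7 CPM by IV (SD, n = 3 each). The groups did not overlap on any of the 3 scales, and on library totals alone this was so for 7.01% of genes lower by ICV. The fitted difference of Arnt was -0.50 ± 0.26 log2 units (adjusted p = 0.565). Tiparp was also lower by ICV in every population, by a fitted -0.58 ± 0.27 (adjusted p = 0.533), although in CD45.1 µ the levels were 305 and 307 CPM. That value was -0.25 without ICV CD45.1 TAµ, -0.29 without IV CD45.1 TAµ and -0.85 without ICV CD45.1 µ. Ahrr was higher by ICV in every population (1.27 ± 0.76, adjusted p = 0.612), as were 8.87% of genes, and by 0.83 without ICV CD45.1 µ. Here edgeR called 0 genes (1230 at an unadjusted p under 0.05) and DESeq2 147.

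**Figure D3:**
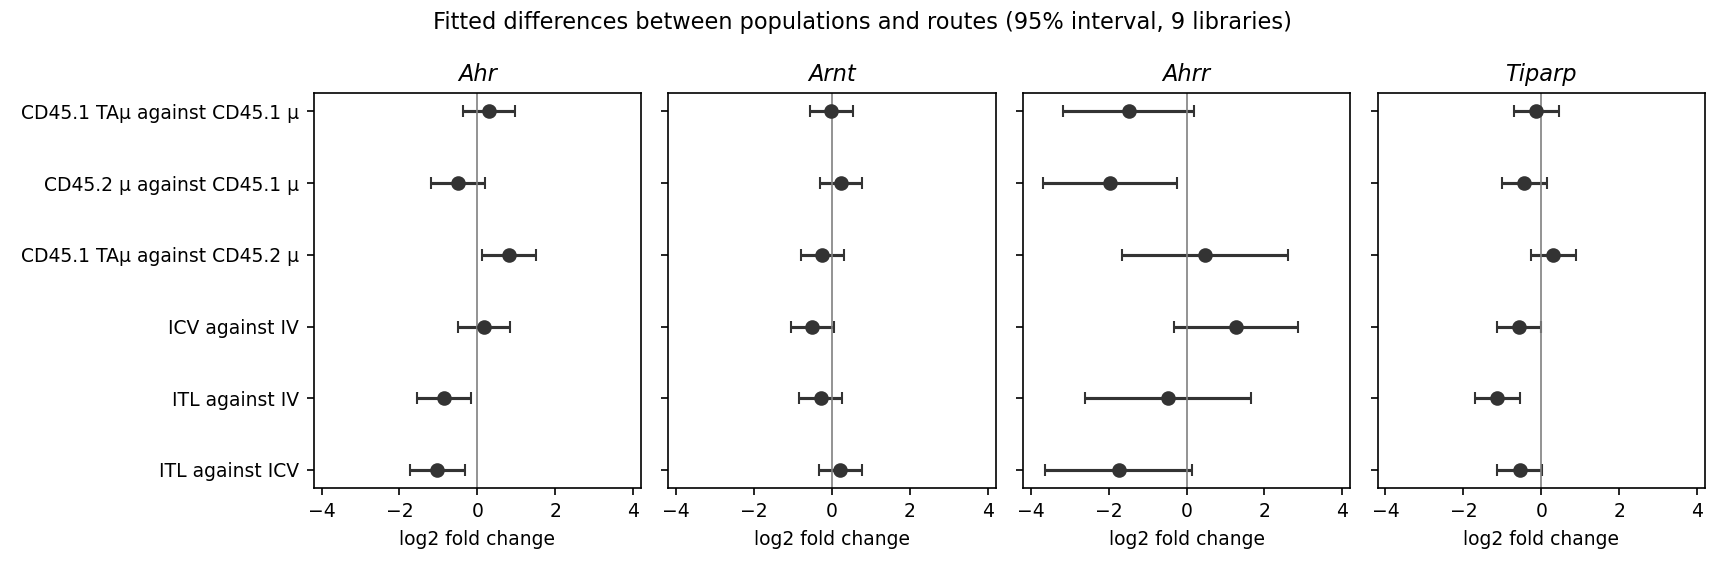
Fitted log2 fold changes (points) with 95% intervals (bars) of the 4 genes for the 3 contrasts of populations and the 3 of routes, from the additive edgeR model of 9 libraries; values above 0 are higher in the first-named group. Tiparp in ITL against IV lies farthest from 0 for its width (-1.13, interval -1.71 to -0.55), and the intervals of Ahrr are the widest.

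The ICV CD45.2 PBS library was set beside ICV CD45.2 µ, with 1 library each and no test. Ahr was 0.917-fold (exact 95% interval 0.866 to 0.971, counting error only) and Arnt 1.15-fold (1.08 to 1.22). Ahrr was 0.590-fold (0.409 to 0.841), from 50 and 92 reads. Tiparp was the member that differed most, with 305 against 161 CPM, 1.89-fold (1.82 to 1.98). None of the 4 passed 1 log2 unit, beyond which 9.62% of 13091 genes were higher in the PBS library and 8.75% lower. The Ahr level of the PBS library was 27.6-fold that of CTR µ.

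Of 86 genes in 6 pathway lists, 65 could be tested, and edgeR called 1 of them in 1 of the 390 tests, where 0.111% of the tests of all genes were called. An unadjusted p under 0.05 was found in 20, or 5.13%, below the share over all genes. DESeq2 made 5 calls for these genes over the 6 contrasts, where it made 1016 calls over the 80034 tests of all genes, so nothing is read from that count. The called gene was Per1, a PAS-domain repressor of the circadian clock, which fell by 1.77 ± 0.24 log2 units by ITL against IV (adjusted p = 0.00428). Its levels were 432, 674 and 615 CPM by IV, 318, 213 and 274 CPM by ICV, and 136, 135 and 225 CPM by ITL, each in the order µ and TAµ of CD45.1, then µ of CD45.2. The call was lost without ITL CD45.1 µ, IV CD45.1 TAµ or ITL CD45.1 TAµ. In CTR µ its level was 266 CPM, while PBS-labelled cells had 553 CPM.

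The chaperones that hold AHR in the cytoplasm were all tested (8 of 8) and none was called in any contrast. The HSP90 genes were higher in CTR µ than in any of the 9 libraries, Hsp90aa1 with 2428 CPM against 688 to 2182 CPM and Hsp90ab1 with 2090 CPM against 745 to 1335 CPM, where 5.61% of all genes were above all 9. In all, 3 of the 8 were above all 9. Of the 8, 7 were above the mean of the 9 in CTR µ (median log2 difference 0.30, against 0.07 over all genes). Ptges3, the HSP90 cochaperone p23, had 147 CPM in CTR µ, within the 93.2 to 162 CPM of the 9 libraries, and Cdc37, which loads kinases onto HSP90, had 59.3 CPM, also within the range. CTR µ thus held the chaperone messages with very little of the receptor's own.

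Of 16 other bHLH-PAS genes in the tables, 12 could be measured beside CTR µ, and 6 of these were at 0 in at least 1 of the 9 libraries, so that CTR µ could not lie below them. Of the 12, 0 lay more than 1 log2 unit below or above the 9 libraries. With 1.21% and 0.67% of all genes beyond these limits, nothing is read from that count. Hif1a, the hypoxia factor that also pairs with ARNT, had 221 CPM in CTR µ and 130 to 369 CPM in the 9. Clock, an activator of circadian genes, had 83.4 CPM against 79.3 to 165 CPM. Epas1, the second hypoxia factor and a gene of endothelial cells, was the most uneven, with 6.08 to 179 CPM in the 9 libraries and 19.9 CPM in CTR µ.

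The coregulators Ep300, Ncor1, Ncoa3 and Crebbp, which activate or silence transcription on chromatin, were within the range of the 9 libraries in CTR µ, at 345, 255, 341 and 256 CPM. All 12 coregulators could be tested and none was called. In CTR µ 4 of the 12 were below all 9 libraries and 1 above, where 7.38% and 5.61% of all genes were. Over the list the median log2 difference of CTR µ from the mean of the 9 was -0.33.

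Among the classical targets of the receptor, Cyp1a1, the cytochrome that it induces most strongly, had 0 reads in all 11 libraries. Cyp1b1, a related cytochrome, was at 0 in 3 of the 9 libraries and reached 7.02 CPM in ICV CD45.1 TAµ, with 0.842 CPM in CTR µ. The detected targets were not uniformly low in CTR µ: of the 11 that could be measured, 7 were above the mean of the 9 there and 4 below. However, 5 of the 11 were at 0 in at least 1 of the 9 libraries, which lowers the log2 mean that CTR µ is set against. Nfe2l2, the master regulator of the antioxidant response, had 386 CPM in CTR µ and 212 to 418 CPM in the 9. Tgfa, a growth factor ligand of the EGF receptor, was highest in CTR µ, with 130 CPM against 5.99 to 82.1 CPM. Lpxn, an adhesion adaptor, and Ugt1a7c, a glucuronosyltransferase, were within the range (76.7 and 41.6 CPM in CTR µ).

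Of the genes that supply or take up tryptophan-derived ligands, 14 were in the tables and 8 could be tested, with none called between populations or routes. Slc16a10, an aromatic amino acid transporter, had 25.3 CPM in CTR µ against 53.2 to 90.9 CPM in the 9 libraries. Of the 68 genes measured in the 6 lists, it was the only 1 more than 1 log2 unit outside the 9 there. Over all genes 1.21% were that far below and 0.67% that far above, so nothing is read from that count. The partners of Slc16a10 in amino acid uptake, Slc7a5, Slc7a8 and Slc3a2, were within the range, at 64.7, 545 and 283 CPM. The ADP-ribosylation genes, the enzyme family of TIPARP, could all be tested (17 of 17) and none was called. In CTR µ, 2 of the 17 were below all 9 libraries, where 7.38% of all genes were. Parp14 and Parp4 were just below the range there, with 104 CPM against at least 110 CPM and 52.7 CPM against at least 57.5 CPM. Parp8 and Parp1 were within it, at 109 and 67.4 CPM.

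Profiles like those of the 4 genes were ranked by Pearson's r of log2 CPM, as a description over libraries that share depth and cell make-up. Over the 9 libraries, and among 8205 genes, the 5 most like Ahr were Gpr65, a proton-sensing receptor (r = 0.957), Nlrc4, an inflammasome sensor (0.952), Dgkz, a lipid kinase (0.951), Cxcr4, the receptor of the chemokine CXCL12 (0.946), and Gab2, a signalling adaptor (0.943). Spearman's rho was 0.867, 0.867, 0.950, 0.900 and 0.917. With any of the 9 libraries left out, r stayed at or above 0.858 for all 5. Over all 11 libraries the 5 most like Ahr were Nlrc4 (r = 0.983), Cxcr4 (0.982), Sash1 (0.980), Pxdc1 (0.975) and Sorbs3 (0.971), but these values rest partly on CTR µ, and without it the lowest was 0.869.

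Cxcr4 had 11.2 CPM in CTR µ and 85.9 to 435 CPM in the 9 libraries, and Nlrc4 had 1.99 CPM against 13.8 to 96.0 CPM. Gpr65 had 25.2 CPM in CTR µ against 77.3 to 529 CPM. Dgkz and Gab2 dropped less far in CTR µ, to 92.4 CPM against 163 to 262 CPM and to 115 CPM against 123 to 241 CPM. On TMM-scaled totals Gab2 in CTR µ lay inside the range of the 9. It was at -0.42 log2 units from their mean there, against -0.52 in ITL CD45.2 µ.

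**Figure D4:**
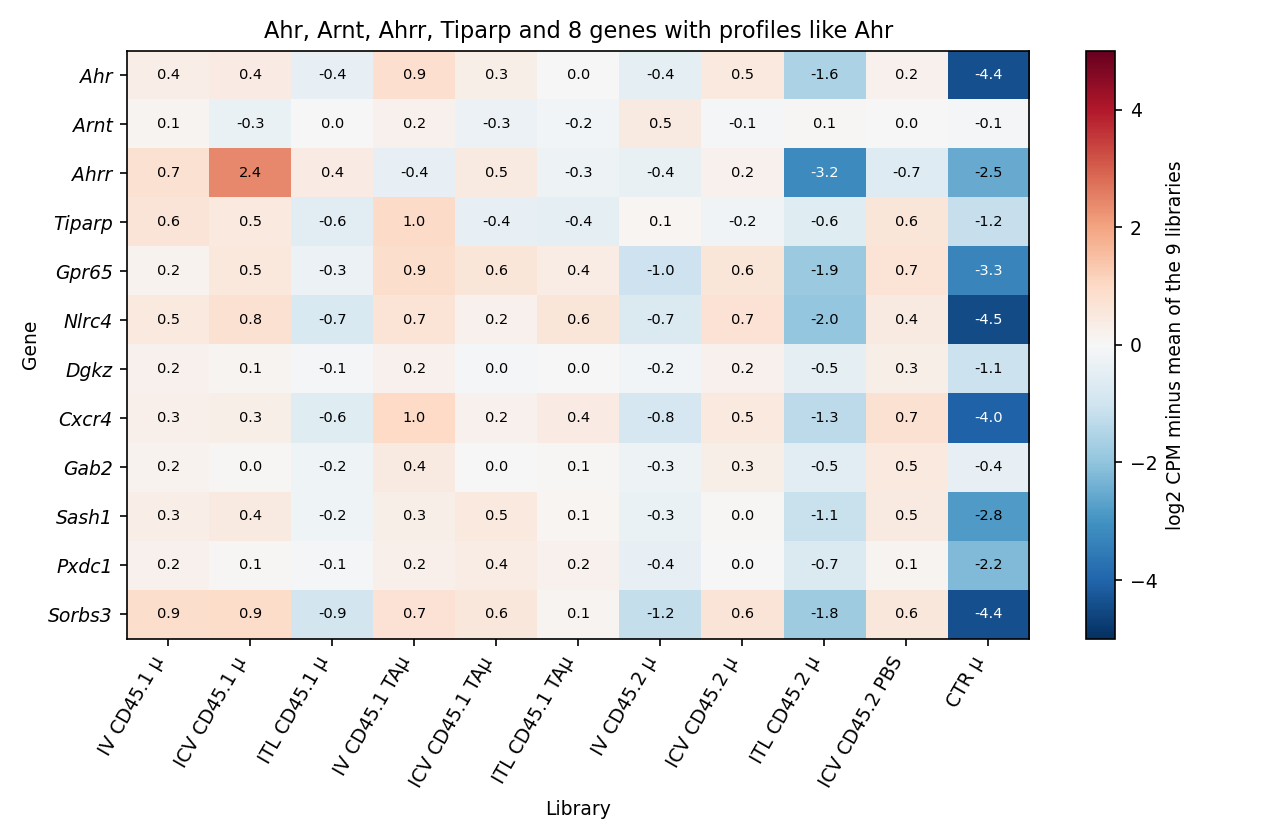
log2 CPM minus the mean of the 9 libraries, for the 4 genes and for 8 genes whose profile is most like that of Ahr over 9 or 11 libraries (blue lower, red higher, values printed in each cell). Ahr, Nlrc4, Cxcr4 and Sorbs3 are lowest in CTR µ and next lowest in ITL CD45.2 µ, while Arnt stays between -0.34 and 0.45 in every library.

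Among the 4 genes themselves, the profile of Tiparp was the nearest to that of Ahr in rank (r = 0.65, rho = 0.73 over 9 libraries), and 349 other genes were nearer by r. Ahrr gave r = 0.72 but rho = 0.33 with Ahr, and Arnt gave r = -0.23. Among the genes most like Tiparp were Paxbp1 (r = 0.946), Syk, a kinase of immune receptor signalling (0.936), and the splicing genes Sf3b1 (0.934) and Hnrnph1 (0.925). Those most like Arnt were Senp2, Azin1, Vezf1, Stk40 and Wdsub1 (0.960 to 0.925). Those most like Ahrr were Lman2l, Scamp4, Trim12a, Slc16a10 and Dcun1d3 (0.919 to 0.909), where without ITL CD45.2 µ, the library with 2 Ahrr reads, r was 0.763 for Lman2l and 0.734 for Scamp4.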

How the data were processed

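Polyadenylated RNA of 11 libraries was analysed from counts. The authors deposited raw, unnormalized counts, whole-number reads for each gene symbol. STAR was the aligner and GRCm39 (mm39) the genome, per the submitters' processing notes. Not given in the sources used here are STAR's version, the annotation and the strand setting. Depth ran from 6090589 to 21282823 counts.

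R 4.3.3, edgeR 4.0.16 and DESeq2 1.42.0 were used. edgeR's filter (minimum count 10, minimum total 15) left 13339 genes in 9 libraries, scaled by TMM. The quasi-likelihood F test of route plus population left 4 residual degrees of freedom, with Benjamini-Hochberg adjustment at 0.05. Its p-values and intervals used edgeR's total degrees of freedom, which include those borrowed from all genes. The script was tested on simulated data. CPM used library totals, and correlations used log2 CPM with a prior count of 2. Intervals and limits of 3 counts cover counting error only, since PCR copies were not told apart by molecular identifiers. Gaps and ratios over all genes had 0.5 counts added.

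The members, lists and tests were chosen with earlier results of these data known. Of each pathway list, genes past the threshold and then those with the highest mean were named, up to 4, and Cyp1a1 and Cyp1b1 always. Of profiles, the 5 highest r were named among genes with a mean of at least 10 CPM and no Gm or Rik name, except 1 that is not reported here. Alternatives were DESeq2, DESeq2's size factors, no filter, no block, all 11 libraries, each library left out and, chosen after seeing the data, edgeR's legacy quasi-likelihood fit.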

Additional observations from a re-analysis of the deposited data

How the results depend on the processing

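No paired analysis was possible because no label gives an animal or a replicate number, and with 1 library per combination the additive model assumes that a lone library varies like the others. Of 360 refitted member differences, 353 kept their direction and their side of the threshold. Tiparp in ITL against IV passed with DESeq2 (-1.10, adjusted p = 0.0123). In CD45.1 TAµ over CD45.1 µ, Arnt turned to 0.078 without ITL CD45.1 µ and 0.02 without ITL CD45.1 TAµ (range -0.066 to 0.078), and Tiparp to 0.13 without ICV CD45.1 µ and 0.20 without ICV CD45.1 TAµ (range -0.41 to 0.20). For ICV against IV, Ahr turned to -0.02 without IV CD45.2 µ and -0.29 without ICV CD45.2 µ (range -0.29 to 0.54). The cause was not tested.

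Counts of genes called depended on the test. The count for CD45.1 TAµ over CD45.1 µ was 10, with 23 without a filter, 217 with DESeq2, 2 without the block, 24 with all 11 libraries, 3 with the legacy fit and 0 (without IV CD45.1 TAµ) to 24 (without IV CD45.2 µ) with a library left out. Between the µ populations of both alleles it was 4, with 277 by DESeq2, 0 without the block, 0 with the legacy fit and 0 (without IV CD45.1 µ) to 29 (without ICV CD45.2 µ) with a library left out. For CD45.1 TAµ over CD45.2 µ it was 46, with 193 by DESeq2, 29 without the block, 22 with the legacy fit and 5 (without IV CD45.1 TAµ) to 159 (without ICV CD45.2 µ) with a library left out. For ICV against IV it was 0, with 8 without a filter, 147 by DESeq2, 6 with all 11 libraries and 0 to 28 (without IV CD45.2 µ) with a library left out. For ITL against IV it was 29, with 150 by DESeq2, 13 without the block, 10 with the legacy fit and 0 (without ITL CD45.1 µ) to 35 (without IV CD45.2 µ) with a library left out. For ITL against ICV it was 0, with 2 without a filter, 32 by DESeq2, 2 with all 11 libraries and 0 to 3 (without ICV CD45.1 TAµ) with a library left out.

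On TMM-scaled totals the log2 ratio of CTR µ to the mean of the 9 was -0.094 for Arnt (from -0.24) and -1.28 for Tiparp (from -1.43), and with a library left out that of Tiparp ran from -1.50 to -1.26. The ratio of the PBS library to ICV CD45.2 µ was 0.833 for Ahr on TMM-scaled totals and 0.830 without Rn45s, 1.04 and 1.04 for Arnt, and 1.72 and 1.71 for Tiparp. Depth limits Ahrr most, with 2 reads in ITL CD45.2 µ and 7 in CTR µ.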
